A study of Homo sapiens with 8 samples.

Results

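The 10 genes described here make, carry or load the fat that intestinal cells send out as lipoproteins: APOA1, APOA2, APOA4, APOB, APOC3, APOE, APOH, MTTP, FABP1 and FABP2. They are a list of names, drawn up for their known role but with earlier results of these data known, and all 10 were found among the 58735 genes of the table. The study measured the mRNA of Caco-2 cells given M2-exo or only buffer. Caco-2 is a line from a human colorectal carcinoma that stands for the intestinal epithelial cell, called IEC in the series. M2-exo are exosomes, small vesicles shed by cells, from THP-1, a human monocytic leukaemia line; M2 is the usual name of an alternatively activated macrophage state, and M0 that of the unpolarised state. The untreated group received PBS, a salt buffer (3 libraries), and the treated group received M2-exo (3 libraries). All samples are recorded as wild type, and the recorded cell type is stem cells, although both lines are cancer lines. The dose, the time of exposure and the days that Caco-2 cells were grown after confluence, which set how far they differentiate, could not be taken from the sources used here. The small RNA of M0-exo and of M2-exo was measured in 1 library each.

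Dietary fat enters the enterocyte, is bound by small cytosolic fatty acid-binding proteins, is joined again to triglyceride at the endoplasmic reticulum and leaves in lipoprotein particles. The particle is built on one long protein, apoB, while the microsomal triglyceride transfer protein (the product of MTTP) adds lipid to it. The smaller apolipoproteins sit on the surface of particles: apoA-I and apoA-II are the main proteins of high-density lipoprotein, apoA-IV is a chylomicron protein made mostly in the small intestine, apoC-III slows the clearance of triglyceride-rich particles, and apoE is the ligand that lets receptors take remnants up. ApoH, or beta-2-glycoprotein I, binds phospholipid in plasma and is made mainly by the liver.

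The Caco-2 libraries held 15608937 to 18324599 counts. The 10 genes took 0.160% of the counts in untreated 1 and 0.225% to 0.263% in the other 5 libraries. Untreated 1 also had the lowest share of counts from the mitochondrial chromosome, 4.16% against 7.01% to 8.11%. Of the 18 markers listed for enterocytes and colon epithelium, 12 had a mean of at least 1 FPKM in untreated cells (fragments per kilobase of gene, scaled to library size, a level that corrects for gene length). Among them EPCAM, an epithelial adhesion protein, was at 336 FPKM, the adhesion protein CDH17 at 139 FPKM and the brush border protein VIL1 at 84.3 FPKM. Markers of the mature enterocyte were mixed. The peptidase DPP4 was at 74.6 FPKM, the brush border protein CDHR5 at 18.8, the alkaline phosphatase ALPI at 14.3, the peptide carrier SLC15A1 at 4.51 and MYO1A at 3.75. Others were low: KRT20 had at most 5 counts in a library, the glucose carrier SLC5A1 at most 3 and the sugar-digesting enzyme SI 16 to 128.

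The 10 genes spanned the whole range of mRNA levels, from among the most abundant in the cell to no reads at all. APOE was the highest in untreated cells, with 249, 524 and 580 FPKM in the 3 untreated libraries and 367, 540 and 500 FPKM in the 3 treated ones. Its untreated mean of 451 FPKM ± 177 (SD, n = 3) placed it at rank 40 of 19951 protein-coding genes. APOA1 followed at rank 42, with 258, 554 and 493 FPKM untreated and 545, 455 and 476 FPKM treated. In the treated group the mean of APOA1, 492 FPKM ± 46.7 (SD, n = 3), was above that of APOE, 469 FPKM ± 90.5 (SD, n = 3), and the ranges of both genes overlapped in each group, so their order was not resolved. APOA2 held 252, 196 and 157 FPKM untreated and 181, 174 and 181 FPKM treated, rank 115. It lay under APOA1 and APOE in 5 of the 6 libraries by a wide margin, while in untreated 1 all of them lay within 249 to 258 FPKM.

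APOC3 and APOH formed a middle tier. APOC3 read 38.3, 53.9 and 46.9 FPKM untreated and 48.4, 35.7 and 37.0 FPKM treated (rank 832). APOH read 45.2, 52.7 and 30.9 FPKM untreated and 48.4, 38.7 and 31.9 FPKM treated (rank 908). These neighbours overlapped in both groups and cannot be ordered. APOB, the scaffold of the particle, had 20.3, 20.5 and 13.1 FPKM untreated and 21.0, 17.4 and 14.7 FPKM treated (rank 2583), below APOC3 and APOH in every library. The length by which APOB is scaled to FPKM is large, 14828 bases against 945 for APOA2. Its lower level therefore still rested on 3498 to 5596 counts a library, more than APOA2 gave (2669 to 3810). FABP1, the liver-type fatty acid-binding protein that enterocytes also make, stood at 5.35, 7.49 and 12.0 FPKM untreated and 7.28, 5.08 and 5.92 FPKM treated (rank 5101), below APOB in every library.

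The remaining members were at or near the floor. APOA4 had 22, 10 and 14 counts untreated and 12, 11 and 15 treated, a mean of 0.614 FPKM ± 0.288 (SD, n = 3) in untreated cells. MTTP had 4, 18 and 10 counts untreated and 16, 4 and 12 treated, with untreated levels of 0.0464, 0.186 and 0.103 FPKM. FABP2, the intestinal-type fatty acid-binding protein and a defining product of the small intestinal enterocyte, had 0 counts in all 6 libraries. A count of 0 allows up to 3 counts, which is 0.0668 to 0.0758 FPKM depending on the library; such limits and the intervals given for shares cover counting error only. Low levels are common in this table: 47.5% of protein-coding genes had a mean under 1 FPKM and 18.7% had no count in any library. In bulk RNA, fewer cells that express a gene and less mRNA in each cell cannot be told apart.

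**Figure D1:**
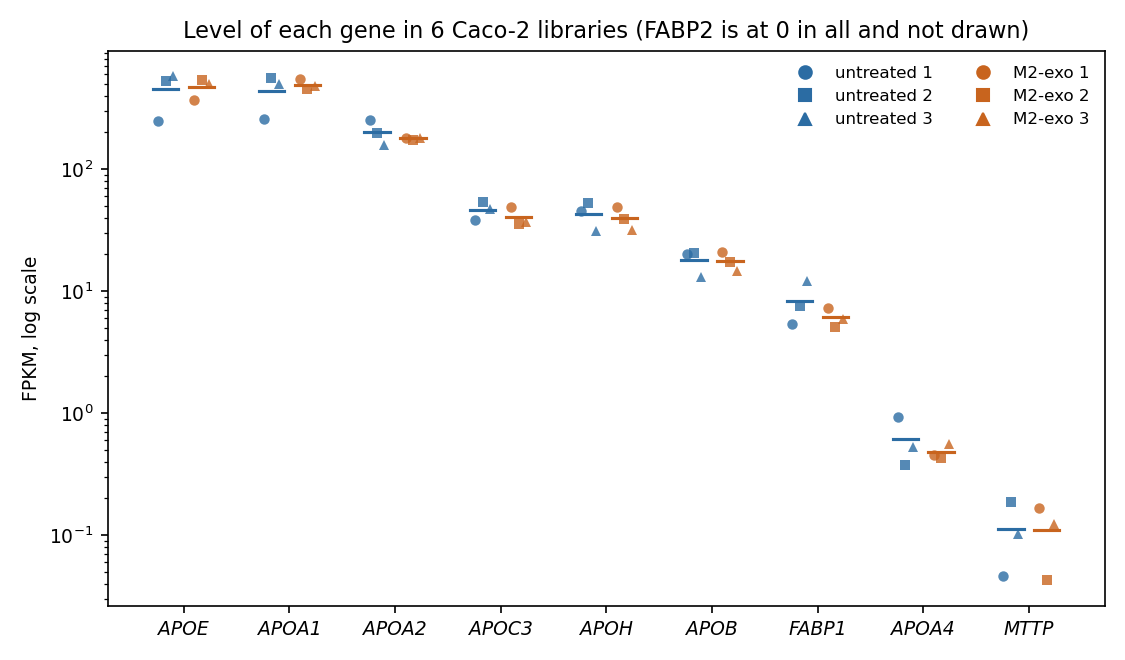
FPKM on a log axis (vertical) for 9 genes (horizontal), with 1 symbol a library, blue for untreated and orange for M2-exo treated cells; short lines are group means. APOE and APOA1 lie at 249 to 580 FPKM, APOA4 below 1 FPKM and MTTP below 0.2, and the groups overlap for every gene.

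Neighbouring genes at the same locus differed by orders of magnitude. On chromosome 11, APOA4 (chr11:116820700-116823306, minus strand), APOC3 (chr11:116829706-116833072, plus strand) and APOA1 (chr11:116835751-116837950, minus strand; all GRCh38) lie side by side. Their untreated means were 0.614, 46.4 and 435 FPKM, and APOA5, the next apolipoprotein gene of this cluster and a liver product, was at 0.424 FPKM. Of the flanking genes, ZPR1 was at 22.7 FPKM and SIK3 at 8.58 FPKM. APOA1 thus stood far above APOA4 within the same cluster. The antisense transcript APOA1-AS, which overlaps APOA1, had at most 5 counts, so it added little to the APOA1 value whatever strand setting was used.

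The chromosome 19 cluster was as uneven. APOE (chr19:44905754-44909393, plus strand, GRCh38) stood at 451 FPKM in untreated cells and its neighbour APOC1, a small apolipoprotein of triglyceride-rich particles, at 26.4 FPKM ± 12.4 (SD, n = 3). APOC4 and APOC2, which encodes the activator of lipoprotein lipase, had no counts, but both lie inside a read-through gene entry that was also at 0, and the way shared reads were counted is not stated in those sources. On the other side TOMM40, a mitochondrial import channel, was at 26.7, 44.8 and 77.1 FPKM untreated and 36.2, 56.2 and 57.6 FPKM treated. NECTIN2, an adhesion protein one gene further on, was at 47.3, 75.1 and 110 FPKM untreated and 56.5, 88.8 and 95.6 FPKM treated. All 4 of APOE, APOC1, TOMM40 and NECTIN2 were lowest in untreated 1 and highest in untreated 3 within the untreated group.

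M2-exo moved none of these genes past the test. With edgeR's quasi-likelihood test on the counts of 15084 genes and Benjamini-Hochberg adjustment at 0.05, 0 of the 9 members tested were called, against a background of 0% called higher and 0% called lower among all genes. The smallest adjusted p of any gene was 0.9999. Without adjustment, 111 genes had p under 0.05 with edgeR, 124 with DESeq2 and 104 with limma-voom. The edgeR count was 0.736% of the genes tested, less than the threshold of 0.05 itself would pass if no gene differed. None of these was a member in the edgeR fit, and at so low a share that does not set the members apart. FABP2, at 0 throughout, could not be tested. Nothing in the sources used here says that the 3 libraries of a group came from separate cultures, so these p-values measure the spread between libraries, which may be technical.

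Of the point estimates, 2 were above 0 and 7 below, with a median log2 fold change of -0.12, beside -0.01 for all genes tested. The median was 0.073 without untreated 2, and leaving out 1 library or another turned the direction of 7 of the 9. Their median absolute log2 change was 0.17, beside 0.10 for all genes tested and 0.08 for genes at a mean of 5 CPM or more. FABP1 was the furthest from 0. It had 211, 332 and 534 counts untreated and 323, 219 and 265 treated, a log2 fold change of -0.45 (SE 0.30, 95% interval -1.11 to 0.22, adjusted p = 0.9999). The treated values lay inside the untreated range, except that M2-exo 2 was just under it once scaled (5.08 against 5.35 FPKM). The value leaned on untreated 3, where FABP1 was highest: without that library it was -0.07, and without untreated 1 it was -0.67 (unadjusted p = 0.0221, adjusted p = 0.957).

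APOC3 had 530, 837 and 731 counts untreated and 753, 540 and 580 treated, a log2 fold change of -0.20 (SE 0.19, interval -0.64 to 0.23). APOA2, with 3810, 3328 and 2669 counts against 3075, 2866 and 3099, came to -0.18 (SE 0.18, interval -0.58 to 0.22). APOA1 was the highest estimate at 0.17 (SE 0.25, interval -0.38 to 0.73), from 5871, 14147 and 12643 counts untreated and 13920, 11312 and 12283 treated. For APOA1 only untreated 1 lay apart; the other 5 libraries were within 11312 to 14147 counts, and without untreated 1 the estimate was -0.084. APOE, APOB and APOH were at 0.05, -0.02 and -0.12 on the log2 scale, with SEs of 0.29, 0.20 and 0.23. Without untreated 1 the APOE estimate was -0.23.

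For these 6 genes, APOA1, APOA2, APOB, APOC3, APOE and APOH, the 95% interval left out a change of 2-fold in either direction, as it did for 75.8% of all tested genes. The interval for APOB, in fold, ran from 0.715 to 1.35, and that for APOA2 from 0.669 to 1.16. A 2-fold fall of FABP1 was not left out (0.462 to 1.16), nor were 2-fold changes of the near-silent APOA4 (0.382 to 1.63) and MTTP (0.364 to 2.63). The CPM values (counts scaled to library size) of the groups overlapped for all 9 members. They failed to overlap for only 3.95% of the genes tested, so overlap in all 9 does not set the members apart.

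**Figure D2:**
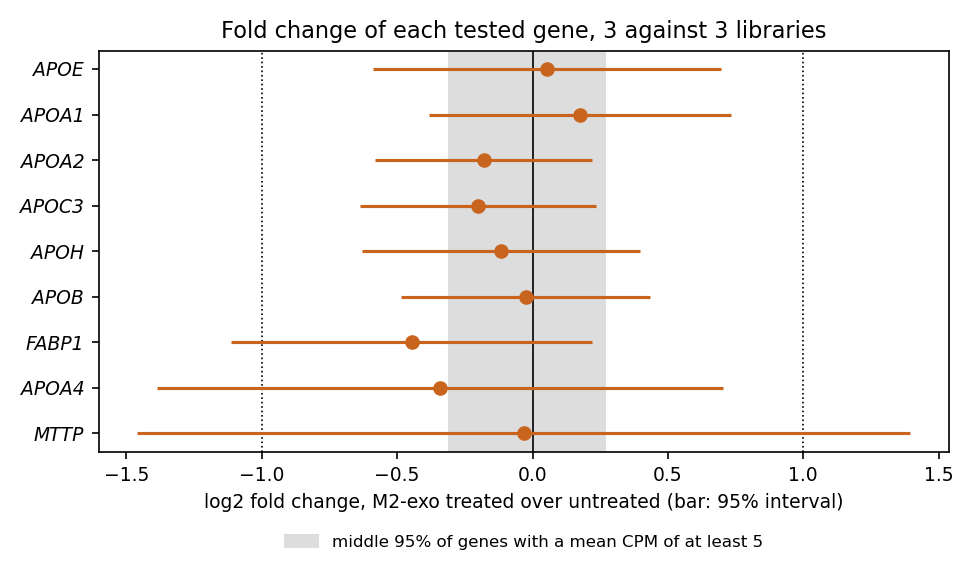
Log2 fold change of M2-exo treated over untreated cells (horizontal) for the 9 tested genes (vertical), with 95% intervals; the grey band spans -0.31 to 0.27, the middle 95% of genes at a mean of 5 CPM or more, and dotted lines mark a 2-fold change. Every interval crosses 0, and FABP1 at -0.45 and APOA4 at -0.34 are the points outside the band.

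For each of the 9 tested members the log2 range among the untreated libraries was larger than the difference between the groups. This sets a range of single libraries against a difference of means, and it is not particular to the members. Genes at a mean of 5 CPM or more had a median untreated range of 0.51 and a median absolute log2 change of 0.08. The share of all genes for which it holds was not counted. APOE varied 2.32-fold among the untreated libraries, FABP1 2.24-fold and APOA1 2.12-fold; among the 10890 genes at a mean of 5 CPM or more, 91.1%, 90.0% and 88.5% had a smaller untreated range than these. In the treated group the same genes varied 1.46-fold, 1.45-fold and 1.21-fold. All 9 tested members had a wider range untreated than treated, as did 76.6% of those 10890 genes, whose median range was 0.51 untreated and 0.29 treated on the log2 scale. APOA2 was the tightest in treated cells, with a 1.05-fold range, after a 1.61-fold range in untreated cells.

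Untreated 1 stood apart for several members, and not in one direction. There APOE lay 0.82 and APOA1 0.79 log2 units under their means over the 6 libraries, while APOA2 lay 0.43 above its own, so that the FPKM ratio of APOA1 to APOA2 was 1.02 in untreated 1 and 2.62 to 3.14 elsewhere. This is the library with 4.16% mitochondrial counts and the lowest total, and the part of either in these values was not tested. FABP1 lay 0.81 above its mean in untreated 3, in which APOB and APOH lay 0.42 and 0.38 below theirs.

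**Figure D3:**
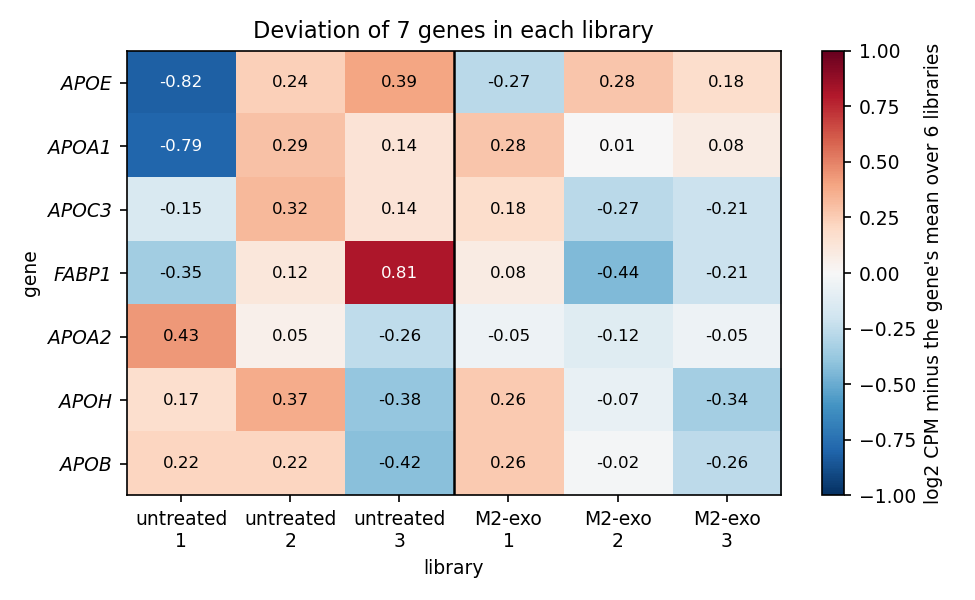
Log2 CPM of 7 genes (rows) in each of 6 libraries (columns) minus the gene's mean over the libraries, red for above and blue for below; the vertical line parts untreated from M2-exo treated libraries. APOE and APOA1 are at -0.82 and -0.79 in untreated 1, FABP1 is at 0.81 in untreated 3, and APOB and APOH share their pattern across the libraries.

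APOB and APOH kept to each other most closely. Their FPKM ratio stayed between 0.389 and 0.459 in all 6 libraries, and their log2 CPM had a Pearson r of 0.96 and a Spearman rho of 0.83, as a description over 6 libraries that share groups, depth and composition. The value was 0.97 without untreated 1, 0.96 without untreated 3 and 0.88 without the pair of libraries furthest from the APOB median. It was the highest of 21 pairs among the 7 members at a mean of 5 CPM or more. In so few libraries a high r is common: 429 of 10371 protein-coding genes had an r of at least 0.9 with APOB, APOH was at position 68 among them, and APOB was at position 22 for APOH. The pair APOA1 and APOE, r 0.77 over all libraries, fell to -0.51 without untreated 1 and rested on that library. APOA1 and APOC3, neighbours on chromosome 11, had an r of 0.54 over all libraries and 0.93 without untreated 1.

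For each member, the protein-coding genes with the most similar log2 CPM over the 6 libraries were listed by Pearson r. For APOB they included CACHD1, PANK1, PIGV and IGBP1 (r 0.994 for each), and for APOH they were CSNK1G1, CNTRL, STK16, MTRF1 and TBC1D19 (at most 0.997). For APOE, CLCN2, P3H4, PALD1, GTPBP3 and ERCC2 led (at most 0.998) among 940 genes with an r of at least 0.9, and for APOA1 SMO, CABLES1, POFUT2, CAPN5 and PLEKHA6 (at most 0.997) among 293. APOA2 was most like CD24, CHD8, UBE2G1, SCARB2 and EOGT (at most 0.996), and APOC3 most like GYG2, DHRS3, SURF1, ZNF786 and PDGFRL (at most 0.983). FABP1 had the fewest close partners after MTTP and APOC3, 53 genes with an r of at least 0.9, led by ALAD, RMI2, ETFB, CES2 and C1orf43 (at most 0.976). For the near-silent genes the leaders were UHRF1BP1, PPM1A, RCAN1, EEF1AKMT2 and TIMM17A for APOA4 and PPCS, SEC14L2, SLC38A3, C20orf96 and CERS4 for MTTP, at counts where sampling error is large.

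The machinery around the members was largely present, while several genes of the intestinal chylomicron route were near the floor. Of 16 genes for lipoprotein assembly and transport, 15 had a mean of at least 1 FPKM in untreated cells. P4HB, the protein disulfide isomerase that pairs with the MTTP product, was at 153, 171 and 153 FPKM untreated and 167, 179 and 157 FPKM treated, and so was abundant where MTTP was almost silent. SAR1B, the small GTPase of the vesicles that carry chylomicrons, was at 8.53 FPKM and SURF4, a cargo receptor, at 155 FPKM. The gene of this list under 1 FPKM was TM6SF2, which helps to lipidate apoB particles, with 6 to 14 counts. In the fit 5 of 15 tested were above 0 and 10 below (median -0.03, 0 called), from SEC24C at 0.11 to MIA3 at -0.11.

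In triglyceride synthesis, MOGAT2, the enzyme of the intestinal monoacylglycerol route, had 1 to 8 counts a library. DGAT1 and DGAT2, which add the last fatty acid, were at 16.8 and 13.5 FPKM. Of 10 tested genes 5 were above 0 and 5 below, with 0 called (median -0.01); MOGAT3 was at 0.35 (SE 0.34) and LPIN1 at -0.23 (SE 0.20). GPAT4, an acyltransferase of the first step, was the one gene of the 10 whose groups did not overlap in CPM, beside 3.95% of all genes tested, at -0.13 (SE 0.14). In FPKM its groups did overlap, with 6.47, 7.06 and 6.95 untreated and 6.48, 6.08 and 6.24 treated.

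Lipid uptake was similar. The fatty acid receptor CD36 had at most 1 count, while NPC1L1, the cholesterol importer, was at 3.88 FPKM and SCARB1, the high-density lipoprotein receptor, at 16.2 FPKM. Of 10 tested genes 3 were above 0 and 7 below, with 0 called (median -0.05). The lowest were DBI, the acyl-CoA-binding protein, at -0.29 (SE 0.18) and ACSL1, which activates fatty acids, at -0.26 (SE 0.15). FABP3 and FABP5, the fatty acid-binding proteins named for heart and skin, were at 9.45 and 10.9 FPKM untreated, so that FABP1 (8.29 FPKM ± 3.40, SD, n = 3) did not stand apart from them. FABP4, FABP6 and FABP7 had at most 4, 13 and 4 counts.

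APOBEC1, the enzyme that edits APOB mRNA in the small intestine so that the short form of apoB is made, had 0 counts in all libraries and overlaps no other gene. Its RNA-binding partners A1CF and RBM47 were at 6.0 and 16.5 FPKM. Editing itself cannot be read from gene counts. Sterol export through ABCG5 and ABCG8 was near the floor (at most 1 and 3 counts), while ABCA1, which loads lipid on apoA-I, read 1.2, 1.89 and 1.2 FPKM untreated and 3.22, 0.692 and 1.17 treated (log2 fold change 0.24, SE 0.49). Only M2-exo 1 was high for ABCA1. Of 7 tested genes for lipid droplets, 4 were above 0 and 3 below (median 0.00, 0 called). CIDEB was listed at 0, but genes that overlap it held up to 970 counts, so that its 0 is uncertain.

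Of the 14 other apolipoproteins, 8 had a mean of at least 1 FPKM in untreated cells, led by APOD at 94.5 FPKM ± 20.9 (SD, n = 3), with APOC1 at 26.4 and CLU at 25.2 FPKM next. In the fit 4 of 9 were above 0 and 5 below (median -0.03, 0 called), with APOD at -0.22 (SE 0.18) and APOC1 at -0.15 (SE 0.31). All 10 lipoprotein receptor genes were at 1 FPKM or more. Of these 2 were above 0 and 8 below (median -0.05, 0 called). LRP2, or megalin, was lowest at -0.32 (SE 0.19). LRPAP1, the chaperone of this receptor family, was the one gene of the 10 whose groups did not overlap in CPM (3.95% of all genes tested), with 14.3, 14.0 and 16.8 FPKM untreated and 11, 13.2 and 13.5 FPKM treated, at -0.26 (SE 0.15).

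**Figure D4:**
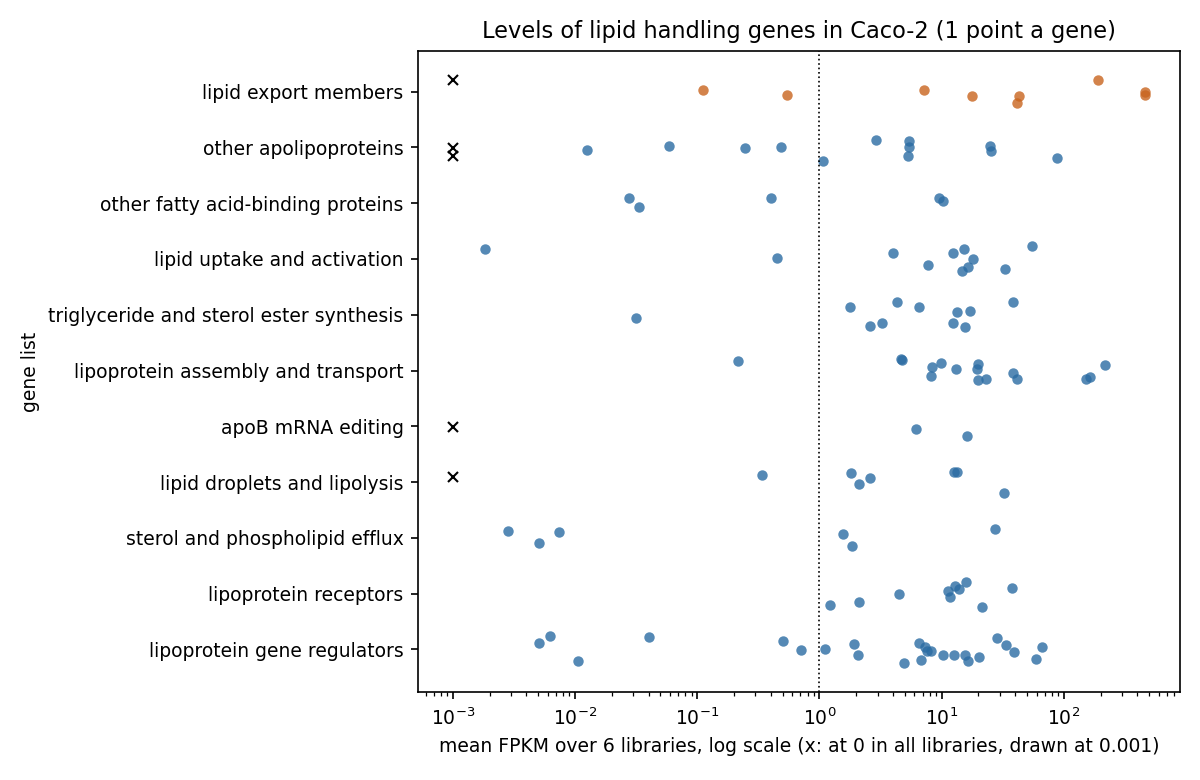
Mean FPKM over 6 Caco-2 libraries on a log axis (horizontal) for the genes of 11 lists (vertical), 1 point a gene, orange for the 10 genes described here; crosses are genes at 0 in every library and the dotted line is 1 FPKM. The 10 genes run from 0 to above 400 FPKM, and the assembly list has 1 gene, TM6SF2, under 1 FPKM.

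Most of the regulators listed for these genes in liver and gut were expressed. Of 25 listed, 6 had a mean under 1 FPKM over the 6 libraries, among them GATA4 (0.814 FPKM untreated) and CREB3L3 (0.458 FPKM untreated). HNF4A, the nuclear receptor that drives many apolipoprotein genes, was at 27.9, 38.8 and 50.8 FPKM untreated and 42.6, 37.1 and 38.5 FPKM treated, with a log2 fold change of 0.01 (SE 0.20). The intestinal factor CDX2 was at 18.3 FPKM, FOXA1 at 64.7 FPKM and GATA6 at 57.9 FPKM. HNF4A and CDX2, like APOA1 and APOE, were lowest in untreated 1. The coactivator PPARGC1A, the bile acid receptor NR1H4 and CDX1 had at most 3, 2 and 2 counts. Of 21 tested regulators 12 were above 0 and 9 below, with 0 called (median 0.03); FOXA2 at 0.31 (SE 0.30) and CDX2 at 0.27 (SE 0.34) were highest, and PPARA at -0.17 (SE 0.18) and PPARG at -0.15 (SE 0.23) lowest among those at a mean of 5 CPM or more.

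Promoter sequence was looked at beside these levels. Which of the factors act on each member was not tested. RefSeq promoters (GRCh38.p14, 250 bases before to 50 after the start) were held for 7 of the 10 genes: APOA2, APOA4, APOE, APOH, FABP1, FABP2 and MTTP; APOA1, APOB and APOC3 have no entry. The windows below are the 120 bases before the RefSeq start, 5′ to 3′ along the gene, for FABP1 (expressed), APOH (expressed) and MTTP (almost silent; the downstream of 2 listed starts). Capitals mark matches, on either strand, to the nuclear receptor half-site AGGTCA, the CDX site CATAAA, the GATA site AGATAA and the TATA box TATAAA. They lie at chr2:88128063-88128182 (minus strand), chr17:66229416-66229535 (minus strand) and chr4:99574704-99574823 (plus strand). The gene table's own intervals for these genes begin upstream of the RefSeq starts, so all or part of each window lies inside the gene as annotated there.
FABP1: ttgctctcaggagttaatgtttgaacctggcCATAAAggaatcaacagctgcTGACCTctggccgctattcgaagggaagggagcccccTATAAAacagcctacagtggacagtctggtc
APOH: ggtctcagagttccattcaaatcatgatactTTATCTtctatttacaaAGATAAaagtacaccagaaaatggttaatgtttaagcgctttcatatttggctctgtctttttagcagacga
MTTP: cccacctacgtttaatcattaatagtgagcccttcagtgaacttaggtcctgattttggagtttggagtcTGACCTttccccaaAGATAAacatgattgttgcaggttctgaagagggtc

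The FABP1 window held 3 of these 4 motifs, with CATAAA at -89 to -84, the reverse form of AGGTCA at -68 to -63 and TATAAA at -31 to -26 from the start. APOH held AGATAA on both strands, and MTTP held the reverse of AGGTCA at -50 to -45 beside AGATAA at -36 to -31. In the full windows, AGGTCA was in FABP1 and MTTP (13.8% of all 35116 promoters hold it), CATAAA in APOE, FABP1 and MTTP (10.6%), TATAAA in FABP1 and MTTP (11.5%), and AGATAA in 5 of the 7 members, APOA2, APOE, APOH, FABP2 and MTTP (10.3%). The GATA, CDX and TATA motifs share letters, but no matches overlap in the windows printed. The longer HNF4 sites CAAAGTCCA (0.384% of promoters) and CAAAGGTCA (0.407%) were in none of the 7. The HNF1 half-site GTTAAT was also on the list fixed for the search, but it was neither counted nor marked in capitals. Of the printed windows, those of FABP1 and APOH hold it and that of MTTP does not. No share of all promoters is at hand for this motif. A gene was counted where any of its listed windows held the motif, of which MTTP has 2 and APOE 3, while the shares are per single promoter, so the counts cannot be set against them directly. A match is a description of letters and not a bound site.

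Many genes of other liver proteins, most of them secreted, were expressed beside the members. Of 17 such genes, 11 had a mean of at least 1 FPKM in untreated cells, among them VTN at 146, SERPINA1 at 58.6, FGG at 43.6, RBP4 at 43.2 and TTR at 33.5 FPKM. ALB and AFP, the adult and fetal serum albumins of liver, were at 2.62 and 3.26 FPKM. HP and the enzymes CYP3A4 and CYP7A1, which are not secreted, had at most 2, 1 and 6 counts. AMBP, HPX and TF were also under 1 FPKM in untreated cells. The summed level of the 17 was 340 to 486 FPKM untreated and 301 to 552 FPKM treated, highest in M2-exo 1. In that library APOA1, APOB, APOC3, APOH and FABP1 were also highest of the treated group. APOE went the other way, with 367 FPKM there against 540 and 500, and APOA2 was at 181 FPKM in both M2-exo 1 and M2-exo 3. The members' summed level was lowest of the treated libraries in M2-exo 1, 1219 FPKM against 1267 and 1247. Of 18 macrophage and monocyte markers 13 were under 1 FPKM in untreated cells and CD68, ITGAX, TYROBP and LPL were at 0, although the CD68 value is uncertain because overlapping genes held up to 214 counts. PTPRC, which all leukocytes carry, had at most 1 count. Other markers of the list were present: CD14 at 3.84, LYZ at 2.31, AIF1 at 1.69 and FCER1G at 1.10 FPKM in untreated cells. The summed level of the list was 28.1 to 32.4 FPKM untreated and 25.7 to 27.5 FPKM treated, most of it CD74. The part of such cells in the APOE level was not tested.

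The exosomes carried some of the miRNAs known to act on lipoprotein genes. The miR-30 family is shown because miR-30c-5p is known to lower MTTP mRNA. The 3 members printed share a seed, bases 2 to 8, the stretch that pairs with a target, set in capitals in the mature sequences (RefSeq, GRCh38.p14):
hsa-miR-30c-5p: uGUAAACAuccuacacucucagc
hsa-miR-30a-5p: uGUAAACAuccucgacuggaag
hsa-miR-30e-5p: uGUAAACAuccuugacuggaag
In the deposited table miR-30c-5p had 661 of 13584 counts in M0-exo, 4.87% (95% exact Clopper-Pearson interval 4.51 to 5.24), and 687 of 9929 in M2-exo, 6.92% (6.43 to 7.44). With 1 library each this compares those libraries and not the conditions. The others were scarcer: in M0-exo and M2-exo, miR-30a-5p held 0.184% and 0.161% of counts, miR-30e-5p 0.155% and 0.111%, miR-30b-5p 0.199% and 0.292%, and miR-30d-5p 1.02% and 1.30%. Among further miRNAs known for lipoprotein genes, miR-148a-3p, which acts on ABCA1, held 12.5% of counts in M0-exo (1704) and 13.7% in M2-exo (1356). The liver miRNA miR-122-5p held 0.177% (24) and 0.222% (22). In M0-exo and M2-exo, miR-27a-3p had 25 and 5 counts, miR-27b-3p 34 and 21, and miR-223-3p 2 and 0. The others looked for, miR-33a-5p, miR-33b-5p and miR-144-3p, had no entry in the deposited table. MTTP sat at 4 to 18 counts in Caco-2 with or without M2-exo (log2 fold change -0.03, SE 0.63, interval -1.46 to 1.40), so a change of MTTP of the size that this interval spans was not detectable at this depth. Reads of MTTP and of TRMT10A, which overlaps its first bases on the other strand with 63 to 116 counts, cannot be told apart if strand was not used.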

How the data were processed

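Whole-number read counts per gene are used as deposited by the authors, with a second deposited table of FPKM, in which each count is divided by gene length and a library constant. The submitters' processing notes name CASAVA, HISAT2, featureCounts, Bowtie and GRCh38; their versions, the strand setting and the handling of shared reads are not stated there. In the gene tables, 6 columns belong to no listed sample and stayed out of every step. The miRNA counts of the exosomes are also as deposited. The 6 Caco-2 libraries (15608937 to 18324599 counts) were tested 2-sided with edgeR 4.0.16 (R 4.3.3), using the quasi-likelihood F test after filterByExpr (15084 genes kept) and TMM scaling, with Benjamini-Hochberg adjustment over all genes. An SE is the absolute log2 change over the root of F. Levels were compared between genes on FPKM and within a gene on CPM (prior count 2 on the log2 scale). The scripts were tested on simulated data. The 10 members, the gene lists, the motifs and the miRNAs were chosen with earlier results of these data known. Genes named from a list are the up to 2 highest and 2 lowest log2 changes at a mean of 5 CPM or more and defining markers near 0, and for each member the 5 protein-coding genes most like it; other genes named were chosen after their values were seen. Alternatives were DESeq2 1.42.0, limma-voom (limma 3.58.1), other scalings and filters, limma on log2(FPKM + 1) and log2(FPKM + 0.1), a replicate block and each library left out. Some genes that this rule takes are not reported here.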

Additional observations from a re-analysis of the deposited data

How the results depend on the processing

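No member was called under any of the alternatives run. Without a filter on low counts (29414 genes) edgeR called 3 genes higher (BOLA2B, U2AF1L5 and EGR1) and 3 lower (RN7SL2, SMIM11A and C6orf48), none of them a member; the cause was not tested. Leaving out 1 library at a time gave 0 to 1 gene called higher, the 1 being BOLA2B without M2-exo 2, and 0 called lower. The median log2 fold change of the members, -0.12, ranged from -0.27 without M2-exo 1 to 0.073 without untreated 2, and from -0.12 to -0.10 under the other alternatives. Other scalings, filters and tools turned no member's direction, but leaving out 1 library did for 7 of 9: the range was -0.084 to 0.40 for APOA1, -0.31 to 0.023 for APOA2, -0.58 to 0.092 for APOA4, -0.19 to 0.11 for APOB, -0.23 to 0.29 for APOE, -0.29 to 0.073 for APOH and -0.43 to 0.55 for MTTP. APOC3 (-0.34 to -0.07) and FABP1 (-0.67 to -0.07) stayed below 0. Without untreated 1 the Pearson r of APOA1 with APOE went from 0.77 to -0.51, and that with APOA2 from -0.80 to 0.53. Without untreated 3 they were 0.78 and -0.86. Without the pair of libraries furthest from the APOA1 median they were -0.77 and 0.19. No other single library was left out of these correlations.

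Untreated and treated libraries share replicate numbers in the labels. Deviations from the group means of same-numbered libraries correlated at 0.46, -0.12 and 0.70 over 10890 genes. Untreated 1 with M2-exo 3 was at -0.56, and untreated 3 with M2-exo 1 at -0.62. Whether the numbers mark a pairing was not tested. The main fit, with its SEs and intervals, used no pairing. With a replicate block edgeR called 0 genes higher, 0 lower and 0 members, and the members' median was -0.10; untreated 2 correlated best with M2-exo 1 (0.25), the others with their own number. MTTP and APOA4, at 4 to 22 counts, limit what could be seen by their depth.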
